A study of Homo sapiens with 8 samples.

Results

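The 40 genes described here are the transcripts of the human mitochondrial genome and nuclear genes for the transcription, processing, stability and copying of that genome, measured in the human colorectal adenocarcinoma line HT29. They were chosen by gene symbol, 13 mitochondrial mRNAs, 2 mitochondrial rRNAs and 25 nuclear genes, out of 58193 genes with a matched transcript, and all 40 were among the 16449 genes that passed the filter on low counts. RNA was sequenced from 8 libraries in 4 groups of 2. The control cells received DMSO, the vehicle, at 0.1% for 48 h, and the treated cells received ICG-001 at 10 µM, CWP232228 at 1.5 µM or YB-0158 at 0.3 µM, compounds that the study's title calls reverse-turn peptidomimetics. Treatment lasted 48 h, except 49 h for replicate 2 of ICG-001 and replicate 2 of CWP232228. The labels do not say whether replicates were separate cultures, so a p-value here weighs a difference against the spread of these libraries alone, part or all of which could be technical. Doses differ between compounds, so their values are set side by side and differences between them belong to the treatments as given.

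Mitochondrial DNA is a small circle transcribed from both strands into long precursors. Excision of the tRNAs that lie between most genes releases the 2 rRNAs of the mitochondrial ribosome and mRNAs for subunits of respiratory complexes I, III and IV and of the ATP synthase. Every protein that copies, transcribes, cuts, stabilises or degrades these RNAs is made from nuclear genes and imported. The mitochondrial mRNAs, which mostly carry short poly(A) tails, are commonly abundant in libraries made from poly(A) RNA.

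Estimated reads per library ran from 29071547 to 58489118, and levels are given as CPM, reads per 1000000 reads of a library after TMM scaling. Colon epithelium and HT29 markers (11 of 11 tested) summed to between 15700 and 18300 CPM in DMSO and between 11700 and 14100 with the compounds, with 4 higher and 6 lower with ICG-001, 3 and 6 with CWP232228, and 4 and 6 with YB-0158. Fibroblast markers (2 of 8 tested) reached at most 6.14 CPM in sum with COL1A2 and PDGFRA at 0 and 1 called in each direction with each compound, and endothelial markers (2 of 6 tested) at most 2.99 CPM with CLDN5 at 0 (1, 0 and 2 lower in the same order, 0 higher). The leukocyte list (3 of 8 tested) summed to between 2490 and 2880 CPM, of which the secreted lysozyme gene LYZ made 2560 to 2820 CPM in the group means, with CD3E, MS4A1 and TYROBP at 0 (1, 0 and 1 lower, 0 higher). In bulk RNA, a change in the number of cells of one kind and a change in RNA per cell cannot be told apart. Replicates lay farther apart in DMSO (SD of their log2 differences 0.33 over 11335 genes) than with the compounds (0.16 to 0.17), while the fit gives all groups one spread per gene.

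In all 6 treated libraries the mRNAs of the mitochondrial genome took a larger share of reads than in either control library, while the share of the rRNAs of the same genome lay above both controls with ICG-001 and overlapped them with CWP232228 and YB-0158. The 13 mRNAs took 0.903% and 1.4% of estimated reads in the DMSO libraries, 4.36% and 4.32% with ICG-001, 3.89% and 3.61% with CWP232228, and 3.43% and 3.5% with YB-0158. The 2 rRNAs took 0.14% and 0.211% in DMSO, 0.253% and 0.249% with ICG-001, 0.213% and 0.202% with CWP232228, and 0.186% and 0.192% with YB-0158. Both ICG-001 libraries exceeded DMSO, 1 CWP232228 library did, and both YB-0158 libraries lay between the DMSO libraries. Within a library, mRNA reads per rRNA read stood at 6.46 and 6.64 in DMSO and between 17.2 and 18.5 in the 6 treated libraries. The DMSO libraries differed more in either kind of RNA than in the ratio, and every treated ratio lay above both. With 2 libraries against 2, an exact two-sided permutation test cannot go below p = 0.333, so none is given for the ratio. The libraries were made with a poly(A) kit, so reads of an RNA depend on its capture as well as its amount. Ratios of mRNA to rRNA, and of the rRNAs to each other, therefore compare reads and not RNA amounts. The 22 mitochondrial tRNA genes together held at most 14 reads in a library and are not described further.

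**Figure D1:**
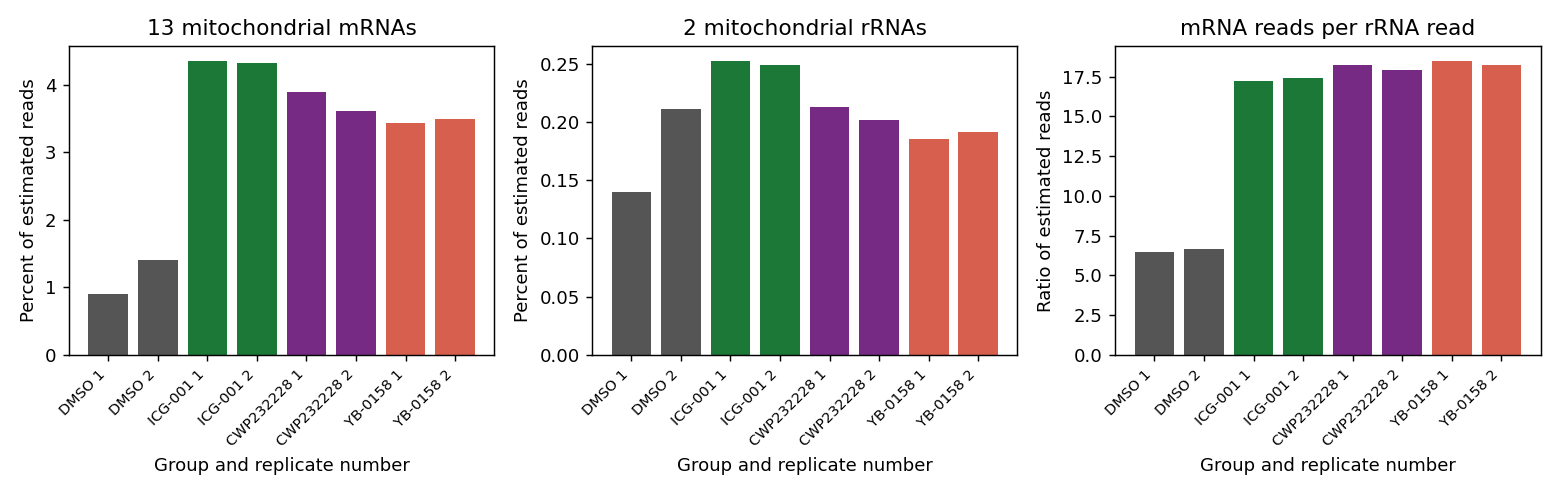
Percent of estimated reads in the 13 mitochondrial mRNAs (left) and the 2 mitochondrial rRNAs (middle), and mRNA reads per rRNA read (right), with 1 bar for each of the 8 libraries. The mRNA share is at most 1.4% in DMSO and at least 3.43% in treated libraries, and the ratio moves from 6.46 and 6.64 to between 17.2 and 18.5.

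With each compound all 13 mitochondrial mRNAs rose against DMSO, by edgeR's quasi-likelihood test with an adjusted p under 0.05 over all genes. The background is wide: 48.8% of all genes tested were called with ICG-001 (24.8% higher, 24% lower), 42.8% with CWP232228 (21.6% higher, 21.2% lower) and 43.8% with YB-0158 (21.7% higher, 22.1% lower). The median log2 fold change of the 13 mRNAs was 1.86 with ICG-001, 1.68 with CWP232228 and 1.58 with YB-0158, where that of all genes tested was 0.03, 0.04 and 0.02. Their range was 1.10 to 2.91, 1.00 to 2.55 and 0.84 to 2.69 in the same order. Of 16434 nuclear genes, 355, 301 and 465 had a log2 fold change at or above that median. The libraries of compound and DMSO did not overlap in any of the 39 comparisons, where 38.8%, 38.1% and 37.3% of all genes lay wholly above DMSO. The 3 comparisons share the DMSO libraries, so their values are given side by side and are not independent of each other.

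The complex I subunits lie in the part of the enzyme that pumps protons across the inner membrane, and MT-ND2 had the largest log2 fold change of the 13 mRNAs with ICG-001 and YB-0158. MT-ND2 (ENSG00000198763, chrM:4470-5511) stood at 583 and 867 CPM in DMSO, 5410 and 5500 with ICG-001, 4280 and 3940 with CWP232228, and 4490 and 4850 with YB-0158. Every treated library held at least 4.54 times the higher DMSO library. Against DMSO it changed by 2.91 ± 0.18 (SE, adjusted p = 2.6e-05), 2.50 ± 0.17 (adjusted p = 0.00021) and 2.69 ± 0.18 (adjusted p = 4.1e-05) on the log2 scale. MT-ND1, at the start of the mRNA part of the genome and next to the 16S rRNA gene, was counted at 469 and 835 CPM in DMSO, 3760 and 3570 with ICG-001, 2480 and 2340 with CWP232228, and 2910 and 2910 with YB-0158. ICG-001 libraries were highest and CWP232228 libraries lowest among the treated, and all exceeded DMSO. Its log2 fold changes were 2.49 ± 0.25, 1.89 ± 0.24 and 2.16 ± 0.24 (adjusted p = 0.00039, 0.0022 and 0.00076).

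MT-ND4 encodes another membrane subunit of complex I and was measured at 1160 and 1850 CPM in DMSO, 5100 and 5210 with ICG-001, 5110 and 4550 with CWP232228, and 4090 and 4090 with YB-0158. Its neighbour MT-ND4L stood at 118 and 126 CPM in DMSO, 575 and 580 with ICG-001, 584 and 539 with CWP232228, and 396 and 448 with YB-0158. MT-ND4L had the closest DMSO libraries of the 13 mRNAs, 1.07-fold apart, and had the smallest SE of the 13. The log2 fold changes of MT-ND4L were 2.24 ± 0.09, 2.20 ± 0.09 and 1.79 ± 0.09 (adjusted p = 2.5e-06, 1.6e-05 and 6.8e-06), and those of MT-ND4 were 1.77 ± 0.20, 1.68 ± 0.20 and 1.44 ± 0.19 (adjusted p = 0.0004, 0.0013 and 0.0011). The 2 genes are read from 1 joint mRNA and share 7 bases, so reads over the join fit both. The end of MT-ND4L (chrM:10737-10766) and the start of MT-ND4 (chrM:10760-10789), both on the plus strand in GENCODE release 29 on GRCh38, are shown to make this overlap visible, with the shared bases in capitals.
MT-ND4L 3′ end: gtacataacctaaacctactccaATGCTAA
MT-ND4 5′ start: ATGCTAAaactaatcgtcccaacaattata

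The mRNAs of MT-ND3 and MT-ND5, which encode further membrane subunits of complex I, rose by less than the median of the 13. MT-ND3 stood at 189 and 256 CPM in DMSO, 465 and 489 with ICG-001, 415 and 476 with CWP232228, and 378 and 419 with YB-0158. MT-ND3 had the lowest log2 fold change of the 13 with each compound, 1.10 ± 0.14, 1.00 ± 0.14 and 0.84 ± 0.14 (adjusted p = 0.0007, 0.0022 and 0.0027). MT-ND5 was measured at 414 and 578 CPM in DMSO, 1330 and 1340 with ICG-001, 1220 and 1090 with CWP232228, and 1070 and 1020 with YB-0158. All 6 treated values of MT-ND5 lay above DMSO, and its log2 fold changes were 1.43 ± 0.14, 1.22 ± 0.14 and 1.07 ± 0.14 (adjusted p = 0.00021, 0.0012 and 0.00084).

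MT-ND6 is the only protein gene of the circle on the other strand (chrM:14149-14673, minus strand), next to the end of MT-ND5. It stood at 1.22 and 1.38 CPM in DMSO, 5.16 and 7.43 with ICG-001, 7.81 and 3.82 with CWP232228, and 4.11 and 3.58 with YB-0158. Only 35 and 39 reads lay behind the DMSO values, and the kit does not mark strand, so reads from the opposite strand cannot be told apart. On the log2 scale it changed by 2.27 ± 0.37, 2.16 ± 0.38 and 1.57 ± 0.38 (adjusted p = 0.0022, 0.0046 and 0.013). With a spread estimated per group in limma voom the adjusted p became 0.1, 0.14 and 0.24, and with YB-0158 the call was also lost without DMSO replicate 1 (adjusted p = 0.083), DMSO replicate 2 (adjusted p = 0.09) or YB-0158 replicate 1 (adjusted p = 0.065).

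Complex IV, cytochrome c oxidase, draws its catalytic core from MT-CO1, MT-CO2 and MT-CO3, which together made the largest part of mitochondrial mRNA reads in every library. MT-CO1 was counted at 2000 and 3180 CPM in DMSO, 6960 and 6720 with ICG-001, 6030 and 5760 with CWP232228, and 5090 and 5120 with YB-0158. MT-CO2 stood at 1140 and 2060 CPM in DMSO, 4510 and 4710 with ICG-001, 4210 and 3840 with CWP232228, and 3590 and 3760 with YB-0158. In both genes the DMSO libraries lay far apart, 1.59-fold for MT-CO1 and 1.81-fold for MT-CO2, and yet below every treated library. The log2 fold changes of MT-CO1 were 1.40 ± 0.19, 1.19 ± 0.19 and 0.98 ± 0.19 (adjusted p = 0.00088, 0.0031 and 0.0047), and those of MT-CO2 were 1.52 ± 0.25, 1.33 ± 0.25 and 1.2 ± 0.25 (adjusted p = 0.0029, 0.0072 and 0.0085). MT-CO3 was measured at 1260 and 2180 CPM in DMSO, 6150 and 6160 with ICG-001, 5770 and 5290 with CWP232228, and 5090 and 5230 with YB-0158. Its rise was larger than that of the other 2 in each comparison, with log2 fold changes of 1.84 ± 0.23, 1.68 ± 0.23 and 1.58 ± 0.23 (adjusted p = 0.00082, 0.0023 and 0.0017), although the difference between genes was not tested.

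MT-CYB, cytochrome b, is the single mitochondrial subunit of complex III, which passes electrons to cytochrome c. It stood at 742 and 1240 CPM in DMSO, 3630 and 3570 with ICG-001, 3140 and 3020 with CWP232228, and 3220 and 3090 with YB-0158. Treated libraries spanned 1.2-fold, less than the 1.67-fold between the DMSO libraries. MT-CYB changed by 1.86 ± 0.21, 1.63 ± 0.21 and 1.67 ± 0.21 on the log2 scale (adjusted p = 0.00056, 0.002 and 0.001).

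The ATP synthase subunits MT-ATP6, part of the proton channel, and MT-ATP8 are also read from 1 joint mRNA. MT-ATP6 was counted at 953 and 1490 CPM in DMSO, 5470 and 5730 with ICG-001, 5390 and 4620 with CWP232228, and 4200 and 4360 with YB-0158. MT-ATP8 stood at 87.5 and 111 CPM in DMSO, 621 and 691 with ICG-001, 608 and 551 with CWP232228, and 435 and 494 with YB-0158. Both genes were highest with ICG-001, and no treated library overlapped DMSO. MT-ATP8 changed by 2.73 ± 0.13, 2.55 ± 0.13 and 2.23 ± 0.13 on the log2 scale (adjusted p = 7.4e-06, 5e-05 and 2e-05), and MT-ATP6 by 2.20 ± 0.20, 2.04 ± 0.20 and 1.81 ± 0.20 (adjusted p = 0.00018, 0.0008 and 0.00043). The 2 coding regions overlap by 46 bases in different reading frames, so reads over the overlap are divided between them by the counting model. MT-ATP8 reads were 9.18% and 7.41% of MT-ATP6 reads in DMSO and between 10.4% and 12.1% with the compounds. The overlap is shown in capitals, from the end of MT-ATP8 (chrM:8513-8572) and the start of MT-ATP6 (chrM:8527-8586), plus strand.
MT-ATP8 3′ end: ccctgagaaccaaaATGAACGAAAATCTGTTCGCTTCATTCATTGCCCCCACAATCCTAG
MT-ATP6 5′ start: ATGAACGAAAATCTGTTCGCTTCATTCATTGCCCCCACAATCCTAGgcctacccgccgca

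**Figure D2:**
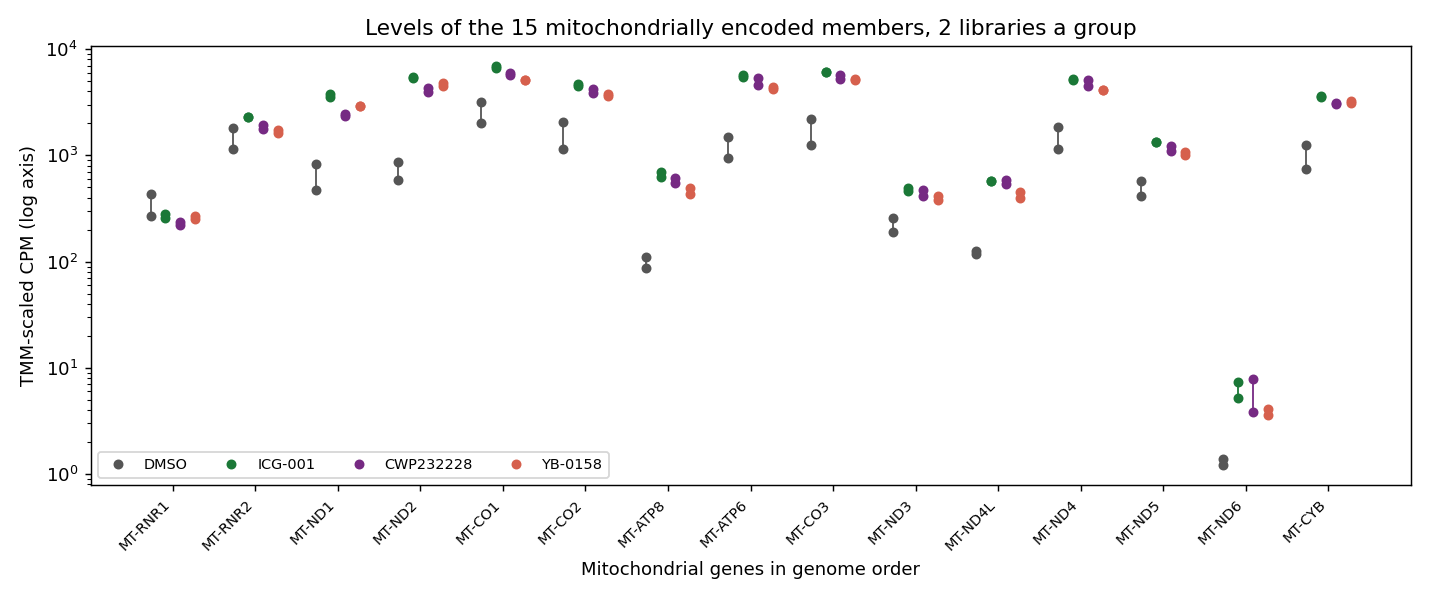
Level of each of the 15 mitochondrial RNAs in TMM-scaled CPM on a log axis, with genes in genome order, 1 point a library and a line joining the 2 libraries of a group. Treated points lie above both DMSO points for all 13 mRNAs, for example 3940 to 5500 against 583 and 867 for MT-ND2, and not for MT-RNR1.

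The genes of the 2 rRNAs lie first on the strand from which most mRNAs are also cut. MT-RNR1, the 12S rRNA of the small ribosomal subunit (chrM:648-1601), stood at 267 and 429 CPM in DMSO, 278 and 257 with ICG-001, 234 and 223 with CWP232228, and 270 and 252 with YB-0158. All 6 treated libraries lay below the higher DMSO library, and 4 of them below the lower one. Its log2 fold changes were -0.38 ± 0.20 (adjusted p = 0.16), -0.60 ± 0.20 (adjusted p = 0.047) and -0.42 ± 0.20 (adjusted p = 0.13), so it was called lower with CWP232228, and its differences between compounds were not called (adjusted p = 0.57 to 1). The CWP232228 call of MT-RNR1 was lost under 5 of the other settings (adjusted p = 0.053 to 0.14) and without either CWP232228 library (adjusted p = 0.12 and 0.18). DESeq2 also called MT-RNR1 lower with ICG-001 (-0.40, adjusted p = 0.045) and YB-0158 (-0.43, adjusted p = 0.033). Without DMSO replicate 1, the log2 fold changes with ICG-001 and YB-0158 were -0.67 (adjusted p = 5.6e-05) and -0.71 (adjusted p = 4.7e-05). MT-RNR2, the 16S rRNA of the large subunit (chrM:1671-3229), stood at 1150 and 1800 CPM in DMSO, 2280 and 2290 with ICG-001, 1920 and 1790 with CWP232228, and 1620 and 1720 with YB-0158. With YB-0158 both libraries lay between the 2 DMSO libraries. Its log2 fold changes were 0.64 ± 0.18 (adjusted p = 0.024), 0.33 ± 0.18 (adjusted p = 0.18) and 0.18 ± 0.18 (adjusted p = 0.45). The rise with ICG-001 was lost without ICG-001 replicate 1 (adjusted p = 0.083), without replicate 2 (adjusted p = 0.091), in the fit of the 2 groups alone (adjusted p = 0.064) and once GC content and length were corrected for (0.52, adjusted p = 0.14). Without DMSO replicate 2, MT-RNR2 passed the threshold with CWP232228 (0.68, adjusted p = 0.00023) and YB-0158 (0.53, adjusted p = 0.00028).

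MT-ND1 lies just after MT-RNR2 on the same strand, and its reads were higher relative to both rRNAs in every treated library. MT-ND1 reads per MT-RNR1 read were 1.76 and 1.95 in DMSO, 13.5 and 13.9 with ICG-001, 10.6 and 10.5 with CWP232228, and 10.8 and 11.6 with YB-0158. Per MT-RNR2 read they were 0.409 and 0.465 in DMSO and between 1.29 and 1.80 with the compounds. The rRNAs also moved relative to each other, as MT-RNR1 made 18.9% and 19.3% of rRNA reads in DMSO and between 10.1% and 14.3% with the compounds.

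**Figure D3:**
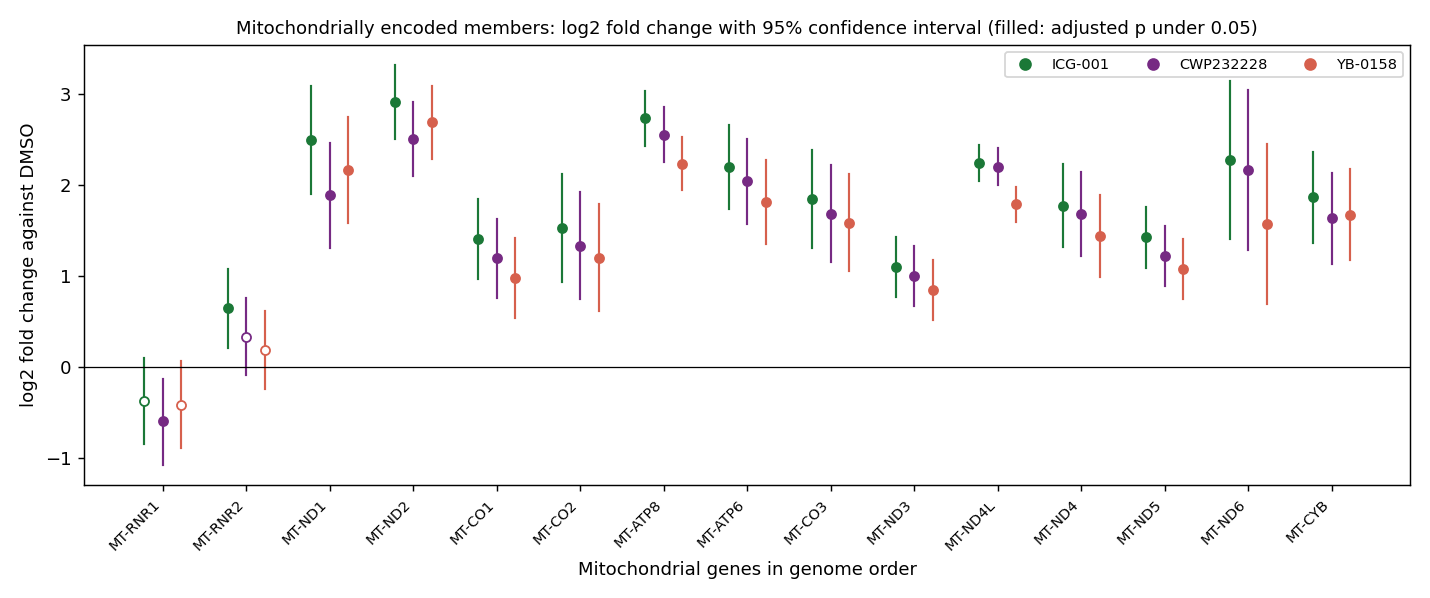
log2 fold change against DMSO of the 15 mitochondrial RNAs in genome order, with 95% confidence intervals from the fit, for the 3 compounds, and filled points where the adjusted p is under 0.05. All mRNA points lie at 0.84 or above, while MT-RNR1 lies between -0.60 and -0.38 and MT-RNR2 between 0.18 and 0.64.

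The make-up of the mitochondrial mRNA pool also differed. Complex IV mRNAs made 48.3% and 50.2% of the 13 mRNAs' reads in DMSO and between 39.4% and 41.3% in treated libraries. Complex I mRNAs made 32.2% and 30.5% in DMSO and between 35.9% and 38.4% with the compounds, and ATP synthase mRNAs 11.4% and 10.8% against 13.3% to 15.3%. Complex III, that is MT-CYB, overlapped, at 8.13% and 8.4% against 7.99% to 9.22%. Within the complexes, MT-ND1, MT-ND2, MT-ATP6 and MT-ATP8 lay above DMSO in all 6 treated libraries, and MT-ND3, MT-ND5, MT-CO1 and MT-CO2 below it. MT-ND2 went from 6.38% and 5.87% to between 10.9% and 13.5%, and MT-CO1 from 22.0% and 21.5% to between 14.3% and 16%. The shares of MT-ND4, MT-ND4L, MT-ND6, MT-CO3 and MT-CYB overlapped between DMSO and the compounds. These shares add to a whole, so a rise in one lowers others, and none was tested.

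Values of CPM per kilobase of transcript allow reads of genes of different length to be compared. On this scale, MT-CO2 (2340), MT-CO3 (2200), MT-ATP6 (1790) and MT-CO1 (1680) were the highest in the DMSO mean. MT-ND2 was lower at 695 and MT-ND1 at 682. With ICG-001 the highest were MT-ATP6 (8220), MT-CO3 (7850), MT-CO2 (6740) and MT-ND2 (5240), and with YB-0158 MT-CO3 (6580), MT-ATP6 (6280), MT-CO2 (5370) and MT-ND2 (4480). MT-ND2 thus stood above MT-CO1 with all 3 compounds (3950 against 3830 with CWP232228) and below it in DMSO. MT-ND6 was lowest throughout, at 2.47 in DMSO and between 7.33 and 12 with the compounds. Capture by the poly(A) kit can differ between RNAs, so this order is one of reads per length and not of RNA amounts. For MT-ATP8, MT-ND4L and MT-ND3, which are short relative to a sequenced fragment, the files give effective lengths of 9, 48 and 96 bases, so their levels per length are less certain.

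Other measurements moved with the mRNA rise. Genes of low GC content tended to be higher in treated libraries. The Spearman rho across genes between log2 fold change and GC content was -0.43 with ICG-001, -0.58 with CWP232228 and -0.38 with YB-0158, and the mRNAs have 39.6% to 47.7% GC. The 6062 nuclear genes with 39% to 48% GC had median log2 fold changes of 0.27, 0.31 and 0.22. Of them, 37.1%, 36.8% and 31.4% were called higher, where all genes tested gave 24.8%, 21.6% and 21.7%. With a correction for GC content and length, the 13 mRNAs had medians of 2.04, 1.83 and 1.75, above the uncorrected ones. That correction fits GC content and length together on nuclear genes, so the part of GC content alone was not tested. RNAs retained in the nucleus rose too, with MALAT1 at 69.8 and 60.3 CPM in DMSO and 154 to 236 with the compounds, and NEAT1 at 148 and 124 against 288 to 412. Of the 9 RNAs listed for RNA quality, 4 could be tested and 3 rose with each compound, no listed RNA was at 0 in all libraries, and the list summed to 188 to 226 CPM in DMSO and 451 to 653 with the compounds. RN7SL1, which lacks a poly(A) tail, was lower with ICG-001 and YB-0158 (-1.49 and -1.47 on the log2 scale, adjusted p = 0.0086 and 0.01). The part of these nuclear RNAs, and of the fall in the epithelial marker sum, in the result was not tested. DMSO replicate 2 exceeded replicate 1 in all 13 mRNAs, by 1.07 to 1.81 times. Without DMSO replicate 1 the medians of the 13 mRNAs were 1.54, 1.39 and 1.36, and without DMSO replicate 2 they were 2.27, 2.12 and 1.82.

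The nuclear genome carries old copies of mitochondrial DNA, and 407 such genes are annotated in GENCODE. Their summed level was 185 and 295 CPM in DMSO and 726 to 931 with the compounds, which is 1.71% to 2.17% of the reads assigned to copies and mitochondrial genes together. The copy with most reads, MTATP6P1 on chromosome 1, differs from MT-ATP6 at 10 of 681 bases (98.5% identity) and took 13.4% and 13.9% of the reads of the pair in DMSO and 10.4% to 12.2% with the compounds. A window of 60 bases, from base 122 of both transcripts (chrM:8648-8707 for MT-ATP6), is shown because the 3 differing bases, in capitals, are all that a read over it could use to tell them apart.
MT-ATP6: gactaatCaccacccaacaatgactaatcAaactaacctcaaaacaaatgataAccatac
MTATP6P1: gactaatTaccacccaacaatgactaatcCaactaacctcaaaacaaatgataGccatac
When reads of each copy were added to the mitochondrial gene it copies, the median log2 fold changes of the 13 mRNAs stayed at 1.86, 1.68 and 1.58.

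The nuclear members moved by much less, between -0.78 and 0.78 on the log2 scale. With ICG-001, 6 of 25 were higher and 5 lower, with CWP232228 7 and 5, and with YB-0158 3 and 4, shares near or below the 48.8%, 42.8% and 43.8% of all genes called. Their median log2 fold changes were 0.09, 0.02 and -0.01. In all 3 comparisons LRPPRC, PNPT1 and FASTKD2 were higher and POLRMT, POLG, ELAC2 and TBRG4 lower, although of these 7 the TBRG4 calls alone were kept under every alternative run. In total 14 were called in at least 1 comparison and 11 in none. The matching shares of all genes, for calls in all 3 comparisons or in at least 1, were not counted. The 7 and the 14 therefore cannot be set against a background. Of the 25, 13 share exonic bases with another gene, and reads of genes on opposite strands cannot be told apart where the kit marks no strand. Without 1 library the counts moved most for ICG-001 replicate 1 or 2 (7 called), CWP232228 replicate 2 (7) and YB-0158 replicate 2 (3). After the correction for GC content and length, MTPAP turned to -0.38, -0.36 and -0.41 (adjusted p = 0.0038, 0.011 and 0.0027). FASTKD5 was then called lower in each comparison (-0.38, -0.26 and -0.31), and SSBP1 higher with ICG-001 and YB-0158 (0.33 and 0.26). MTERF2 was called lower with ICG-001 and YB-0158 (-0.36 and -0.53, adjusted p = 0.046 and 0.0091), and TFAM with YB-0158 (-0.32, adjusted p = 0.013). Called higher were MTERF4 with YB-0158 (0.18, adjusted p = 0.035) and FASTK with ICG-001 (0.15, adjusted p = 0.038).

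Transcription of mitochondrial DNA rests on POLRMT, the RNA polymerase, with TFAM, which packages the DNA and activates the promoters, and TFB2M. POLRMT (ENSG00000099821, chr19:617224-633604, minus strand) stood at 75.6 and 75.7 CPM in DMSO, 46.4 and 42.8 with ICG-001, 48.3 and 45.7 with CWP232228, and 46.4 and 44.5 with YB-0158. The 6 treated libraries lay close together and all below DMSO. The log2 fold changes were -0.76 ± 0.08 (adjusted p = 0.00017), -0.69 ± 0.08 (adjusted p = 0.00091) and -0.73 ± 0.08 (adjusted p = 0.00023), and -0.49, -0.33 and -0.49 once corrected for GC content and length. By contrast, in the authors' deposited table for CWP232228 it was -0.35 with an adjusted p of 0.11. The protein-coding transcript POLRMT-202 stood at 67.0 and 66.0 CPM in DMSO and between 36.9 and 42.6 in treated libraries, a level that was not tested on its own. TFAM passed the threshold with CWP232228, at 0.49 ± 0.17 (adjusted p = 0.047), and not with ICG-001 (0.18, adjusted p = 0.4) or YB-0158 (-0.03, adjusted p = 0.88), with levels of 65.4 and 51.8 CPM in DMSO, 59.9 and 72.8 with ICG-001, 75.5 and 89 with CWP232228, and 50.8 and 63.7 with YB-0158. Its libraries overlapped DMSO with ICG-001 and YB-0158. The TFAM call was lost without DMSO replicate 2 (adjusted p = 0.26), without CWP232228 replicate 1 or 2 (adjusted p = 0.07 and 0.24) and under 4 of 12 other settings (adjusted p = 0.056 to 0.67), among them the correction for GC content and length, which left 0.05. With YB-0158 the same correction gave TFAM a lower call (-0.32, adjusted p = 0.013). TFB2M, which melts the promoter, the elongation factor TEFM and TFB1M, which methylates the 12S rRNA, were called in no comparison and stayed between -0.18 and 0.22.

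The promoters of the nuclear members were read from RefSeq (GRCh38.p14), as windows of 300 bases over the gene start, for the 22 of 25 that matched. The NRF1 palindrome, bound by a transcription factor of many mitochondrial genes and shown in capitals in the POLRMT window, was found on either strand in the windows of POLRMT and TFB1M, 2 of 22 (9.09%), and in 1.24% of 35116 promoters. The ETS core CCGGAAG, bound by the factor GABPA among others, was found in 10 of 22 (45.5%) and in 10.3% of all promoters, and the 2 motifs do not contain each other. TGATGNAA, a motif of the stress factors ATF4 and CHOP, was found in 0 of 22 and in 3.62% of all promoters. The 35116 promoters were not limited to genes expressed here, and no difference in share was tested. The window of POLRMT (chr19:633488-633787, minus strand) is printed with its ETS core and NRF1 match in capitals beside that of LRPPRC (chr2:43995940-43996239, minus strand), which holds neither.
POLRMT: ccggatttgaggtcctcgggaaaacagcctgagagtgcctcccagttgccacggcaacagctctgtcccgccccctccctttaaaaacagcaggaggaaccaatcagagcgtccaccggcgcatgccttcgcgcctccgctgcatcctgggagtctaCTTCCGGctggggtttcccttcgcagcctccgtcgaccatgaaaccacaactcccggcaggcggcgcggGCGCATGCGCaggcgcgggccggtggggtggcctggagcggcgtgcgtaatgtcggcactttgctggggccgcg
LRPPRC: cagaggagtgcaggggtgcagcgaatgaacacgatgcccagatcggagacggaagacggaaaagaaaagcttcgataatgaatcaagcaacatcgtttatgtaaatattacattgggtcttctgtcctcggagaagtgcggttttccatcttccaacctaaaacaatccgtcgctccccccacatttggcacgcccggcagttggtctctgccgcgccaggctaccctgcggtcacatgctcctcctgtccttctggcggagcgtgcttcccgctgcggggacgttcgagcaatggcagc

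The MTERF proteins bind mitochondrial nucleic acids, and MTERF1 binds the site where rRNA transcription can end. MTERF3, which is tied to mitochondrial ribosome assembly, stood at 7.09 and 8.34 CPM in DMSO, 11.2 and 12.4 with ICG-001, 12.1 and 11.4 with CWP232228, and 8.32 and 12.2 with YB-0158. The YB-0158 libraries lay apart from each other, the lower of them at the level of DMSO. MTERF3 changed by 0.61 ± 0.18 (adjusted p = 0.022), 0.61 ± 0.18 (adjusted p = 0.028) and 0.40 ± 0.18 (adjusted p = 0.1) on the log2 scale. Leaving out DMSO replicate 1 or either library of the compound ended the first 2 calls (adjusted p between 0.055 and 0.11), and both were also absent from the authors' deposited tables (0.35 and 0.30, adjusted p = 0.14 and 0.18) and in limma voom (adjusted p = 0.15 and 0.17). With CWP232228 the correction for GC content and length also ended it (0.44, adjusted p = 0.075). Leaving out YB-0158 replicate 1 gave a call with YB-0158 (0.65, adjusted p = 0.02). MTERF4, the partner of the rRNA methylase NSUN4, passed the threshold with ICG-001 (0.23 ± 0.08, adjusted p = 0.047) but lost that call under 8 of 12 other settings (adjusted p = 0.066 to 0.58) and without DMSO replicate 2 or either ICG-001 library (adjusted p = 0.12 to 0.18). It stood at 0.02 with CWP232228 and 0.21 with YB-0158 (adjusted p = 0.89 and 0.068). MTERF1 and MTERF2 were called in no comparison.

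Among genes for RNA stability, LRPPRC binds mitochondrial mRNAs together with SLIRP and protects them from decay. LRPPRC (ENSG00000138095, chr2:43886508-43996005, minus strand) stood at 214 and 173 CPM in DMSO, 312 and 352 with ICG-001, 316 and 312 with CWP232228, and 280 and 311 with YB-0158. All treated libraries exceeded DMSO, by at least 1.31 times. The log2 fold changes were 0.78 ± 0.11 (adjusted p = 0.00079), 0.70 ± 0.11 (adjusted p = 0.0026) and 0.61 ± 0.11 (adjusted p = 0.003). The correction for GC content and length left 0.23 (adjusted p = 0.0074), 0.12 (adjusted p = 0.13) and 0.11 (adjusted p = 0.13), so the last 2 calls were lost. Its partner SLIRP was lower with ICG-001 (-0.30 ± 0.08, adjusted p = 0.016) and not called with CWP232228 (-0.17, adjusted p = 0.12) or YB-0158 (-0.15, adjusted p = 0.16). The SLIRP call was lost without either ICG-001 library (adjusted p = 0.089 and 0.073) and under 5 of 12 other settings (adjusted p = 0.053 to 0.095). Over protein-coding transcripts alone, SLIRP was also called lower with YB-0158 (-0.52, adjusted p = 0.026 in edgeR). The helicase SUPV3L1 and the poly(A) polymerase MTPAP were called in no comparison, between 0.11 and 0.14 and between 0.02 and 0.19.

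PNPT1 encodes the polynucleotide phosphorylase that, with SUPV3L1, degrades mitochondrial RNA. It stood at 50.4 and 42.2 CPM in DMSO, 71.7 and 81.1 with ICG-001, 74.8 and 74.4 with CWP232228, and 61.2 and 72.9 with YB-0158, so the groups did not overlap. Its log2 fold changes were 0.72 ± 0.12 (adjusted p = 0.0015), 0.69 ± 0.12 (adjusted p = 0.0034) and 0.53 ± 0.12 (adjusted p = 0.0072), the last of which was lost without YB-0158 replicate 2 (adjusted p = 0.063). Among its transcripts with most reads, the mean of PNPT1-202 differed most from DMSO in each comparison, 16.7 CPM against 46.3, 45.3 and 34.6. It is annotated for nonsense-mediated decay, a pathway that removes mRNAs with an early stop. PNPT1-202 stood at 18.8 and 14.7 CPM in DMSO, 41.6 and 51.0 with ICG-001, 47.8 and 42.8 with CWP232228, and 27.4 and 41.8 with YB-0158. PNPT1-201, annotated in the same way, had means of 4.04 CPM in DMSO (8.08 and 0), 7.94 with ICG-001, 5.61 with CWP232228 and 10.7 with YB-0158 (12.7 and 8.8), so part of the difference lay there. The protein-coding PNPT1-205 stood at 18.6 and 25.3 CPM in DMSO and between 15.4 and 19.7 with the compounds. Protein-coding transcripts took 37.0% and 59.9% of the gene's reads in DMSO and 20.5% to 26.4% in treated libraries. When only these were summed, the log2 fold changes turned to -0.39, -0.24 and -0.40 (adjusted p = 0.08, 0.26 and 0.082), so the direction of PNPT1 depends on which transcripts are counted, and Salmon divides reads between them by a model.

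**Figure D4:**
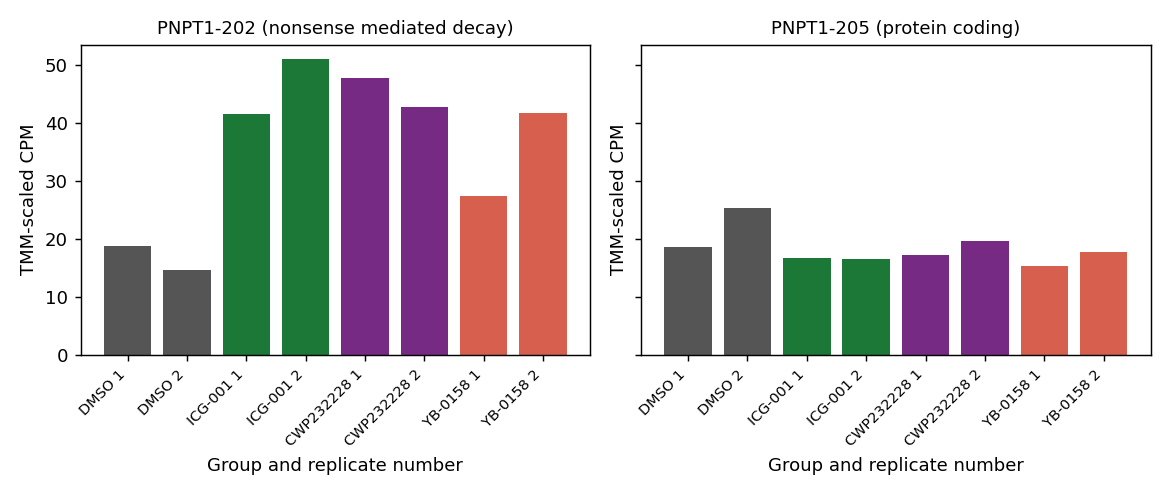
Level in TMM-scaled CPM of the PNPT1 transcripts with most reads, PNPT1-202, annotated for nonsense-mediated decay (left), and the protein-coding PNPT1-205 (right), in the 8 libraries. PNPT1-202 is at 18.8 or below in DMSO and at 27.4 or above in treated libraries, while PNPT1-205 is at 15.4 to 19.7 in treated libraries against 18.6 and 25.3.

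Copying of mitochondrial DNA needs the polymerase subunits POLG and POLG2, the helicase TWNK and the single-strand binding protein SSBP1. POLG stood at 113 and 99.1 CPM in DMSO, 70.1 and 61.6 with ICG-001, 64.1 and 71.1 with CWP232228, and 84.4 and 63.8 with YB-0158. No treated library reached the lower DMSO library. Its log2 fold changes were -0.69 ± 0.14 (adjusted p = 0.005), -0.65 ± 0.14 (adjusted p = 0.009) and -0.52 ± 0.14 (adjusted p = 0.019). The authors' deposited tables give POLG a mean of which the matched transcripts reach 75.3%, and there the log2 fold changes are -0.51, -0.03 and -0.14 (adjusted p = 0.0011, 0.86 and 0.42). With CWP232228 the call was lost without DMSO replicate 1 (adjusted p = 0.051) or CWP232228 replicate 1 (adjusted p = 0.067), and with YB-0158 without DMSO replicate 1, DMSO replicate 2 or YB-0158 replicate 2 (adjusted p = 0.11, 0.052 and 0.11). Other settings ended 3 of 12 and 4 of 12 repeats of these calls, limma voom (adjusted p = 0.062 and 0.1) and the correction for GC content and length (adjusted p = 0.06 and 0.061) among them. TWNK, POLG2 and SSBP1 were called in no comparison and stayed between -0.13 and 0.21. POLG2 sums to 53.8% of the authors' mean, while the 38 members other than POLG and POLG2 sum to at least 94% of it.

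Of the genes for RNA processing, ELAC2 cuts the 3′ ends of tRNAs out of the precursor, and the FASTK family binds particular mitochondrial RNAs. TBRG4, also known as FASTKD4, which stabilises several mitochondrial mRNAs, stood at 130 and 140 CPM in DMSO, 88.3 and 79.3 with ICG-001, 97.2 and 88.4 with CWP232228, and 79.4 and 78.3 with YB-0158. Every treated library lay below DMSO, and the log2 fold changes were -0.69 ± 0.08 (adjusted p = 0.00038), -0.54 ± 0.08 (adjusted p = 0.0024) and -0.78 ± 0.08 (adjusted p = 0.00026). ELAC2 fell by less, with -0.46 ± 0.08, -0.40 ± 0.09 and -0.39 ± 0.08 (adjusted p = 0.0027, 0.0073 and 0.0067). Without CWP232228 replicate 2 or YB-0158 replicate 2 the ELAC2 calls in those comparisons were lost (adjusted p = 0.069 and 0.063), and the authors' deposited tables make no call for it (-0.20, -0.11 and -0.11).

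FASTKD2, which is needed for assembly of the large mitochondrial ribosomal subunit, stood at 31.5 and 28.4 CPM in DMSO, 41.2 and 45.1 with ICG-001, 46.7 and 48.9 with CWP232228, and 33.7 and 41.3 with YB-0158. The 6 treated libraries lay above DMSO. FASTKD2 changed by 0.53 ± 0.11, 0.68 ± 0.11 and 0.32 ± 0.11 on the log2 scale (adjusted p = 0.0055, 0.0032 and 0.048). The YB-0158 call was lost without DMSO replicate 2 (adjusted p = 0.15) or YB-0158 replicate 2 (adjusted p = 0.32) and under 7 of 12 other settings (adjusted p = 0.051 to 0.28), among them DESeq2 and the correction for GC content and length, which left 0.09. FASTKD3 stood at 10.2 and 10.2 CPM in DMSO, 12.4 and 13.3 with ICG-001, 15.4 and 14.8 with CWP232228, and 10.5 and 13 with YB-0158, with log2 fold changes of 0.34 ± 0.12 (adjusted p = 0.049), 0.57 ± 0.12 (adjusted p = 0.0081) and 0.20 ± 0.12 (adjusted p = 0.22). The ICG-001 call of FASTKD3 was lost when any of the 4 libraries was left out (adjusted p between 0.075 and 0.2) and under 8 of 12 other settings (adjusted p = 0.056 to 0.82). Its CWP232228 call was lost under 4 of 12, in limma voom (adjusted p = 0.053), after the correction for GC content and length (0.19, adjusted p = 0.23), over protein-coding transcripts alone (0.36, adjusted p = 0.31) and in the authors' deposited table (0.27, adjusted p = 0.17). FASTKD3 transcripts overlap MTRR on the opposite strand. FASTK and FASTKD1 passed the threshold with CWP232228 (-0.43 ± 0.11 and 0.45 ± 0.15, adjusted p = 0.015 and 0.036) and not with ICG-001 or YB-0158. Without CWP232228 replicate 2 both calls were lost (adjusted p = 0.12 and 0.25), as they were after the correction for GC content and length (0.05 and 0.01) and in the authors' deposited table (adjusted p = 0.06 and 0.53). The FASTKD1 call was also lost without DMSO replicate 2 (adjusted p = 0.11), in the fit of 2 groups (adjusted p = 0.078) and in limma voom (adjusted p = 0.16). FASTK was at -0.27 with ICG-001 and -0.30 with YB-0158 (adjusted p = 0.066 and 0.051). DESeq2 called FASTK lower with both (adjusted p = 0.042 and 0.031). Over protein-coding transcripts alone FASTK was also called lower with both (-0.70 and -0.69, adjusted p = 0.0038 and 0.0049). The correction for GC content and length turned its direction with ICG-001 (0.15). FASTKD5 was called in no comparison.

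**Figure D5:**
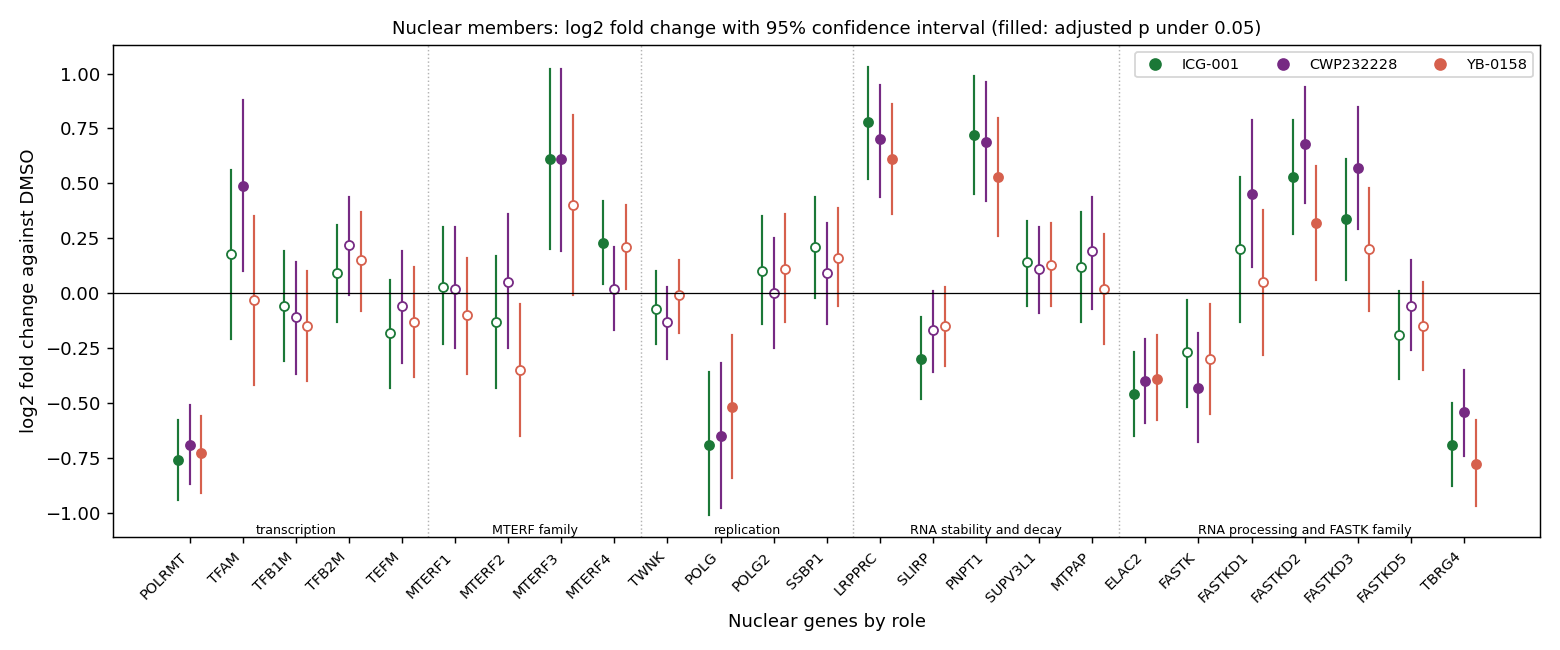
log2 fold change against DMSO of the 25 nuclear members with 95% confidence intervals from the fit, ordered by role, for the 3 compounds, and filled points where the adjusted p is under 0.05. All points lie between -0.78 and 0.78, with POLRMT, POLG, ELAC2 and TBRG4 lower and LRPPRC, PNPT1 and FASTKD2 higher in all 3 comparisons.

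Genes that work beside these members showed both directions. Of 22 further genes for mitochondrial RNA processing and decay, 3 were higher and 10 lower with ICG-001, 3 and 8 with CWP232228, and 3 and 10 with YB-0158, with medians of -0.12, -0.10 and -0.10. These are 13.6% higher in each and 45.5%, 36.4% and 45.5% lower, where 24.8%, 21.6% and 21.7% of all genes were called higher and 24%, 21.2% and 22.1% lower. Examples are RPUSD4, which modifies the 16S rRNA (-0.53, -0.41 and -0.55, adjusted p = 0.00054, 0.0033 and 0.00054), and MRM1, which methylates it (-0.59, -0.65 and -0.56, adjusted p = 0.0015, 0.0021 and 0.0021). TRMT10C, a subunit of the enzyme that cuts tRNA 5′ ends, fell with ICG-001 (-0.57, adjusted p = 0.003) and YB-0158 (-0.73, adjusted p = 0.0011) and was at -0.22 with CWP232228 (adjusted p = 0.13). Of 19 genes for upkeep of mitochondrial DNA, 6 were higher and 5 lower with ICG-001, 6 and 5 with CWP232228, and 5 and 3 with YB-0158, that is 31.6%, 31.6% and 26.3% higher and 26.3%, 26.3% and 15.8% lower, against the same shares of all genes. Among them MRPL12, a ribosomal protein also reported to bind POLRMT, fell (-0.95, -0.84 and -0.93, adjusted p = 0.00017, 0.00096 and 0.00022), as did ATAD3A, a membrane ATPase that contacts nucleoids (-0.82, -0.65 and -0.73, adjusted p = 0.00015, 0.0012 and 0.0003). SLC25A36, a carrier of pyrimidine nucleotides, rose (1.12, 0.89 and 0.95, adjusted p = 0.0023, 0.0093 and 0.0056).

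The shares of all genes called, 24.8%, 21.6% and 21.7% higher and 24%, 21.2% and 22.1% lower, are the background for 4 more lists. Of 9 tRNA modification genes, 2 were higher and 0 lower with ICG-001, 1 and 1 with CWP232228, and 2 and 0 with YB-0158. TRNT1, which adds the CCA end to tRNAs, rose (1.13, 1.41 and 1.32, adjusted p = 0.01, 0.0061 and 0.006). MTO1, which modifies the wobble base, rose with ICG-001 and YB-0158 (0.38 and 0.38, adjusted p = 0.012 and 0.015), and QTRT1, a subunit of the queuine transferase, fell with CWP232228 (-0.36, adjusted p = 0.021). Of 14 translation factors, 5 were higher and 5 lower with ICG-001, 4 and 3 with CWP232228, and 3 and 4 with YB-0158. The elongation factor TUFM fell (-0.88, -0.69 and -0.78, adjusted p = 8e-05, 0.0008 and 0.00017) while the elongation factor GFM1 (0.78, 0.67 and 0.77, adjusted p = 0.00071, 0.0028 and 0.00087) and the initiation factor MTIF2 (0.55, 0.34 and 0.50, adjusted p = 0.0018, 0.021 and 0.0033) rose. Of 13 regulators of mitochondrial biogenesis, 4 were higher and 1 lower with ICG-001, 6 and 2 with CWP232228, and 3 and 1 with YB-0158, with medians of 0.37, 0.39 and 0.27. The coactivator PPARGC1B (0.85, 0.72 and 0.67, adjusted p = 0.0036, 0.011 and 0.012) and GABPB1, a partner of the ETS factor GABPA (0.49, 0.48 and 0.48, adjusted p = 0.0043, 0.0071 and 0.0053), rose. The nuclear receptor ESRRA was at -0.13, -0.38 and -0.09 (adjusted p = 0.19, 0.0069 and 0.36). Of 11 matrix proteases and chaperones, 5 were higher and 3 lower with ICG-001, 3 and 3 with CWP232228, and 5 and 3 with YB-0158. The matrix chaperone HSPA9 rose (1.01, 0.56 and 1.07, adjusted p = 2.5e-05, 0.001 and 2.4e-05), and LONP1, the protease that degrades TFAM among others, rose with ICG-001 (0.51, adjusted p = 0.0016) and YB-0158 (0.63, adjusted p = 0.00065) and was at 0.06 with CWP232228 (adjusted p = 0.6). SPG7, a protease of the inner membrane, fell (-0.43, -0.39 and -0.53, adjusted p = 0.002, 0.0053 and 0.00095).

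Between the treatments as given, 3 pairs were compared with p-values adjusted over all genes. CWP232228 against ICG-001 gave 0 called members of 40 in edgeR, where 6.82% of all genes were called. At an unadjusted p under 0.05 there were 3 (MT-ND1, MT-ND2 and MTERF4, all lower). The share of all genes at that unadjusted threshold was not counted for any of the 3 pairs, so these member counts have no background here. DESeq2 called 0 and limma voom 2. The largest of these differences was that of MT-ND1, -0.60 with a 95% interval from -1.16 to -0.04 (adjusted p = 0.19). YB-0158 against ICG-001 gave 0 of 40 where 0.00608% of all genes were called, with 4 at an unadjusted p under 0.05, all lower (MT-ND4L, MT-ND5, MT-ATP8 and MT-RNR2). DESeq2 called 2 and limma voom 1. More members were called with no filter on low counts and in the fit of the 2 groups alone, as given in the last section. All 13 mRNAs had a lower mean with YB-0158 than with ICG-001, by a median of -0.33, without overlap between the libraries, where 21.4% of all genes were lower without overlap, at doses of 0.3 and 10 µM. The MT-ATP8 difference of -0.50 had an interval from -0.78 to -0.22 (adjusted p = 0.66). YB-0158 against CWP232228 gave 1 called member, where 7.78% of all genes were called (4.21% lower), and 9 at an unadjusted p under 0.05. MT-ND4L, at 396 and 448 against 584 and 539 CPM, differed by -0.41 (95% interval from -0.60 to -0.23, adjusted p = 0.021). That call was lost when any of the 4 libraries was left out. Of the other 12 mRNAs, MT-ATP8 had an interval that left out 0, from -0.60 to -0.04 (unadjusted p = 0.029 and adjusted p = 0.15 in edgeR). The intervals of the remaining 11 held 0 and differed in width by gene, as for MT-ND3 (from -0.49 to 0.17), MT-ND1 (from -0.29 to 0.83) and MT-ND6 (from -1.36 to 0.17).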

How the data were processed

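RNA of 8 HT29 libraries was prepared with a poly(A) kit that marks no strand (TruSeq RNA v2, NextSeq 500, per the labels' protocols). The build GRCh38 and the tools DESeq2, fastp and Salmon 1.3.0 are listed, without order or role, per the submitters' processing notes. The transcriptome release is not given in the sources used here. Per the file headers, the authors deposited estimated counts and TPM per transcript for each library, with transcript length and effective length (read as signal). They also deposited one table per compound with a mean normalized count (read as signal), log2 fold changes, p-values and FPKM; the FPKM values were not used. TPM served for a check only.

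Estimated counts were summed per GENCODE release 29 gene (204677 of 228754 transcripts matched, 89.5%) and rounded. Total estimated counts ran from 29071547 to 58489118 per library, which sets the counting error of each value. Genes were filtered with filterByExpr, scaled by TMM (factors 0.965 to 1.021) and tested in edgeR 4.0.16 (R 4.3.3) with glmQLFit (robust) and glmQLFTest over all 8 libraries in 4 groups, with 4 residual degrees of freedom. P-values were adjusted by Benjamini-Hochberg over 16449 genes and a gene was called at an adjusted p under 0.05. Levels are TMM-scaled CPM. The script was tested on simulated data. Alternatives used DESeq2 1.42.0, limma 3.58.1 (voom), other scalings, no filter, 2 groups only, a GC and length correction, protein-coding transcripts only, nuclear copies added, a replicate block and each library left out. The replicate numbers were not taken as pairs.

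Values in every library are given for the 15 mitochondrial members and for nuclear members called in any comparison with DMSO at an absolute log2 fold change of at least 0.5. Values of up to 3 genes with the smallest p stand for each added list. The members and lists were chosen with earlier results of these data known. Promoters came from RefSeq and other sequences from GENCODE transcripts.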

Additional observations from a re-analysis of the deposited data

Results flagged for a closer look

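Reads assigned to nuclear copies of mitochondrial genes, which stand outside the 40 genes, were above their level in the control libraries. Their summed level averaged 240 ± 77.9 CPM (SD, n = 2) with DMSO, 926 ± 7.91 CPM with ICG-001, 849 ± 5.31 CPM with CWP232228 and 749 ± 32.1 CPM with YB-0158. MTATP6P1 alone stood at 147 and 240 CPM in DMSO and between 563 and 687 with the compounds. How many of these reads came from the mitochondrial genome was not tested.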

How the results depend on the processing

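All repeats reuse the same 8 libraries, and the mitochondrial mRNAs are cut from shared precursors, so the repeats counted here are not independent of each other. The rise of the mitochondrial mRNAs kept its direction in every repeat listed here. The call was kept in 153 of 156 repeats with one library left out and in 465 of 468 repeats under other settings, and each lost call was that of MT-ND6. With one library left out, 13 mRNAs were called with ICG-001 and with CWP232228, and 12 to 13 with YB-0158. The 2 calls of rRNAs were kept in 4 of 8 and 17 of 24 repeats, and the 30 of nuclear members in 89 of 120 and 297 of 360. Nuclear values not called passed the threshold in 8 of 180 and 24 of 540. Nuclear members called numbered 7 with ICG-001 and 7 with CWP232228 in limma voom, and 6, 5 and 4 in the authors' deposited tables (ICG-001, CWP232228, YB-0158). Of 16449 genes, voom called 2951 higher and 3162 lower with ICG-001, and 2350 and 2580 with CWP232228. The authors' tables call 2987 and 3025 of 16734 genes, 2336 and 2303 of 15265, and 2812 and 2778 of 16734. After the correction for GC content and length, 3777 of 16449 genes were called higher and 4049 lower with ICG-001. They were 2025 and 2390 with CWP232228, and 3577 and 3802 with YB-0158. Nuclear members called there numbered 7 with CWP232228, and more than in the uncorrected edgeR fit with ICG-001 and YB-0158. With one library left out they numbered 7 to 10 with ICG-001, 7 to 11 with CWP232228 and 3 to 9 with YB-0158. Directions that turned were MTERF4 (-0.10), FASTKD3 (-0.08) and PNPT1 (-0.39) with ICG-001, and PNPT1 with CWP232228 (-0.24) and YB-0158 (-0.40), when only protein-coding transcripts were summed. Under the correction for GC content and length they were MTPAP (-0.38, -0.36 and -0.41) and FASTK with ICG-001 (0.15) and CWP232228 (0.05). The cause was not tested.

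Between compounds, CWP232228 against ICG-001 gave 5 called members with no filter, 6 in the fit of 2 groups, 2 in voom and 4 after the correction. All genes called were 1050 higher and 1076 lower of 30456 with no filter, and 1546 and 1294 of 15931 in the fit of 2 groups. In voom they were 1432 and 1313 of 16449, and after the correction 1683 and 1606 of 16449. YB-0158 against ICG-001 gave 2 by DESeq2, 10 with no filter, 8 in the fit of 2 groups and 1 in voom. All genes called in this pair were 19 higher and 9 lower of 15811 by DESeq2, and 129 and 139 of 30456 with no filter. In the fit of 2 groups they were 17 and 17 of 16478, and in voom 28 and 13 of 16449. For YB-0158 against CWP232228, all genes called were 780 higher and 811 lower of 12622 by DESeq2, and 1120 and 1258 of 30456 with no filter. In the fit of 2 groups they were 1588 and 1705 of 15867, and in voom 1671 and 1836 of 16449. After the correction they were 1604 and 1614 of 16449. Called members in this pair were 2 by DESeq2, 7 with no filter, 8 in the fit of 2 groups, 8 in voom and 4 after the correction. With any of its libraries left out, each of the 3 gave 0.

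Over all genes, the correction left 2025 higher and 2390 lower with CWP232228, against 3555 and 3487. The called total with CWP232228, 7042 of all genes tested, was 4144 in the fit of 2 groups and 2747 without CWP232228 replicate 2. With ICG-001 it was 5140 without ICG-001 replicate 2, against 8025, and with YB-0158 4237 without YB-0158 replicate 2, against 7209. Between compounds it ranged from 653 to 3289 under other settings for CWP232228 against ICG-001 (1121), from 0 to 268 for YB-0158 against ICG-001 (1) and from 787 to 3507 for YB-0158 against CWP232228 (1279), and with one library left out from 41 to 259, 0 to 2 and 88 to 334. The replicate block gave 13, 13 and 13 mitochondrial mRNAs, 9, 11 and 6 nuclear members and 0, 0 and 1 members between compounds. Of 16449 genes it called 3763 higher and 3715 lower with ICG-001, 3148 and 3165 with CWP232228, and 3277 and 3368 with YB-0158. Between compounds it called 342 and 311, 0 and 0, and 367 and 447 in the same order of pairs. Replicate differences of DMSO and each compound correlated at -0.21, -0.26 and -0.19 across 11335 genes, so the pairing is not established. Those of ICG-001 and CWP232228 correlated at 0.20, of ICG-001 and YB-0158 at 0.51, and of CWP232228 and YB-0158 at 0.12. Replicate differences also followed GC content, with a Spearman rho of -0.59 in DMSO, 0.71 with ICG-001, 0.54 with CWP232228 and 0.52 with YB-0158. With the DMSO numbers crossed, an alternative chosen after seeing the data, 13, 13 and 13 mRNAs and 13, 13 and 9 nuclear members were called. Of all 16449 genes, 8796, 7963 and 8136 were called in that setting. MT-ND6, with 35 and 39 reads in DMSO, is the mRNA that depth limits most.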
